A study of Homo sapiens with 12 samples.

Results

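The 10 genes described here, TAP1, TAP2, TAPBP, TAPBPL, ERAP1, ERAP2, PSMB8, PSMB9, PSMB10 and NLRC5, encode the machinery that makes, transports and loads peptides for MHC class I molecules. They were taken by symbol from the count files, in which 26364 genes were listed. All 10 were found, and all 10 were among the 12858 genes with enough counts to be tested.

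MHC class I molecules display short peptides from inside the cell to CD8 T cells. The peptides are cut by the proteasome, whose catalytic subunits can be replaced by the interferon-inducible immunoproteasome subunits encoded by PSMB8, PSMB9 and PSMB10. The TAP1 and TAP2 proteins form the transporter that moves peptides into the endoplasmic reticulum, where the aminopeptidases ERAP1 and ERAP2 trim them, tapasin (TAPBP) bridges the transporter to the empty class I molecule, and the related protein TAPBPR (TAPBPL) edits the bound peptide. NLRC5 is the transactivator that acts at class I promoters, and interferon gamma induces most of the pathway.

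The RNA came from RKO, an established line of human colon carcinoma cells, and its polyadenylated fraction was sequenced in 6 groups of 2 libraries. The groups were derivatives overexpressing the alpha form of PRDM1 (alpha), derivatives overexpressing its beta form (beta), derivatives overexpressing GFP (GFP), the CRISPR/Cas9 knockout derivatives KO2 and KO5, and RKO cells with wild-type PRDM1 (WT). PRDM1 is a zinc finger transcription factor known best as a repressor in plasma cell differentiation, and its beta form is known to lack part of the PR domain. The series asks what PRDM1 does in colon cancer cells, and each overexpressing group is set here against GFP and each knockout derivative against WT. The labels do not say which vector or promoter drove the transgenes, whether KO2, KO5 or the overexpressing derivatives are single clones, or whether the replicates were separate cultures, so p-values measure the spread between these libraries, which may be technical.

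Gene counts per library ranged from 19058967 to 55961821, and levels are given as CPM, gene counts scaled to a library total of 1000000. With a floor of 3 counts, a gene at 0 could still stand at up to 0.157 CPM in the library of lowest depth. PRDM1 stood at 487 and 480 CPM in the alpha libraries and at 1175 and 1176 CPM in the beta libraries, against 0.0787 and 0.218 CPM in GFP. It had 0 and 1 counts in KO2 and 1 and 1 counts in KO5, against 4 and 4 counts in WT, so its loss could not be read from transcript counts at this depth. Of 8 epithelial markers, KRT8, KRT18 and CDX2 had enough counts to be tested. EPCAM was at 0 in every library, and CDH1, VIL1, KRT19 and KRT20 were at or near 0, so the labelled epithelial origin rests on the keratins and CDX2 in these data. The 8 epithelial markers summed to 823 and 819 CPM in alpha and 929 and 930 CPM in beta, against 902 and 929 CPM in GFP, and to between 1006 and 1189 CPM in the knockout libraries, against 978 and 999 CPM in WT. The 7 leukocyte markers summed to at most 0.0992 CPM in any library. The 6 fibroblast markers, of which only COL1A1 had enough counts to be tested, summed to 9.85 and 10.3 CPM in alpha and 8.29 and 6.99 CPM in beta, against 6.30 and 6.07 CPM in GFP, and their part in the results was not tested.

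PRDM1 is known to bind GTGAAAG-like sequences that overlap the core of the interferon-stimulated response element (ISRE), a GAAA followed after any 2 bases by another GAAA, which interferon regulatory factors bind, so the promoter windows of the genes were searched for both motifs on either strand. The windows run from 250 bases before to 50 bases after each RefSeq start (GRCh38.p14), and 9 of the 10 genes matched, NLRC5 being the one without a window. The ISRE core was found in 7 of the 9 genes (TAP1, TAP2, TAPBP, ERAP1, ERAP2, PSMB8 and PSMB10), against 4.38% of all 27305 genes with a window. GTGAAAG was found in 6 (TAPBP, TAPBPL, ERAP1, ERAP2, PSMB8 and PSMB10), against 4.82% of all genes. Both stood in one window in 5 (TAPBP, ERAP1, ERAP2, PSMB8 and PSMB10), against 0.41% of all genes, and the motifs can share bases. The 9 genes had 14 windows and all 27305 genes had 35116, so the shares per gene are not matched for the number of windows. Which starts are used in RKO, and whether PRDM1 binds in any window, was not tested. Of the 5 genes with both motifs, 4 were picked that include the widest and the narrowest changes against GFP within that set. PSMB9, which changed more against GFP, has neither motif. The full windows of the 4 genes follow, 5′ to 3′ on the gene's strand, with either motif in capitals. They are TAPBP (chr6:33314029-33314328, minus strand), ERAP2 (its second start, chr5:96876250-96876549, plus strand), PSMB8 (its second start, chr6:32843998-32844297, minus strand) and ERAP1 (chr5:96807896-96808195, minus strand).
TAPBP: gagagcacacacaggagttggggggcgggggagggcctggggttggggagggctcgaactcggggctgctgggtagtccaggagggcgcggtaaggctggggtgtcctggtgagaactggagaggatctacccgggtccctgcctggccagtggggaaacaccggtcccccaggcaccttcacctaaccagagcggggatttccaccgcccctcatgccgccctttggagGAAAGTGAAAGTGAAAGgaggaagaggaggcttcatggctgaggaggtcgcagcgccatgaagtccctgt
ERAP2: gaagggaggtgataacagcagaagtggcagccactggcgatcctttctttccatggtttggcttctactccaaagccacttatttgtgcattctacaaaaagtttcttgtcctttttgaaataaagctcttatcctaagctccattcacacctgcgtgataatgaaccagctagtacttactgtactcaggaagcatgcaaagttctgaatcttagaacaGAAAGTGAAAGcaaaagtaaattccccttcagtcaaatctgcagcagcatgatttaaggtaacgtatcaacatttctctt
PSMB8: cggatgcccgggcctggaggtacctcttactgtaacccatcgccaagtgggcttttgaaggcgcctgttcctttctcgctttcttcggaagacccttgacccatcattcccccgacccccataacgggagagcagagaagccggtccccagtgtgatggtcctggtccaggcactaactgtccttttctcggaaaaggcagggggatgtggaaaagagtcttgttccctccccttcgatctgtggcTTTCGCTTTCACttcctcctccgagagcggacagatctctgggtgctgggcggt
ERAP1: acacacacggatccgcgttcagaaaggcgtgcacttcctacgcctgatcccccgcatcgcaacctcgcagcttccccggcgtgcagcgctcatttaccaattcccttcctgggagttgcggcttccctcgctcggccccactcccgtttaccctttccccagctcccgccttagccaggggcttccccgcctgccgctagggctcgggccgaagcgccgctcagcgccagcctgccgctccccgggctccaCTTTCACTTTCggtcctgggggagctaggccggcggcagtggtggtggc

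In TAPBP the motifs overlapped in a tandem run, the ISRE core at positions -20 to -11 and -14 to -5 and GTGAAAG at -16 to -10 and -10 to -4, where position 1 is the first base of the gene. In ERAP2 they lay at -30 to -21 and -26 to -20. In PSMB8 and ERAP1 they were on the opposite strand across or just after the start. PSMB10 had its motifs apart, GTGAAAG at -74 to -68 and the ISRE core at -21 to -12. For the remaining genes with a match, the stretch around it is given: TAP1 (chr6:32853803-32853858, minus strand), TAP2 (chr6:32838768-32838817, minus strand), TAPBPL (its second start, chr12:6452064-6452091, plus strand) and PSMB10 (chr16:67936842-67936944, minus strand).
TAP1: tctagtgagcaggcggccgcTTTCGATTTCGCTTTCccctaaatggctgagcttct
TAP2: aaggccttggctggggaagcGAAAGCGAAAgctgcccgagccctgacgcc
TAPBPL: gggctgccatcttgctctaaGTGAAAGt
PSMB10: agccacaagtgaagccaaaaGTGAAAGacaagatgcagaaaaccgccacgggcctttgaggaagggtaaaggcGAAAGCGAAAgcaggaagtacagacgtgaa

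No window of PSMB9 held either motif, which says only that these letters are not in those windows. An NF-kB motif (GGGA, any base, TTTCC) was found in TAP1 alone of the 9 genes, against 0.678% of all genes. Other forms of the NF-kB motif were not searched for, so their absence from the other genes is not shown. The starts of TAP1 and PSMB9 are 488 bases apart and point away from each other, so that their windows overlap by 13 bases.

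Overexpression of PRDM1 was accompanied by lower transcript levels of most of the machinery. With alpha, 8 of the 10 genes were lower than with GFP and none was higher, whereas 37.5% of all genes tested changed and 16.3% were lower. With beta, 8 were lower and none higher, against 40.9% changed and 18.0% lower among all genes. A fall of at least 2-fold was seen in 2 genes with alpha (ERAP2 and PSMB9), where 1.08% of all genes fell as far, and in 4 with beta (ERAP2, PSMB9, TAPBP and TAPBPL), where 1.61% did. The median log2 fold change of the 10 genes was -0.58 with alpha and -0.72 with beta, while that of all genes tested was 0.01 in both. Both comparisons use the same GFP libraries, and without the library alpha 1 the alpha count was 5. Calls are edgeR quasi-likelihood tests with Benjamini-Hochberg adjustment over all 12858 genes at 0.05, fold changes are log2 values ± standard error, and reads of the 10 genes were counted in bulk, so fewer cells with a transcript and less transcript per cell cannot be told apart.

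**Figure D1:**
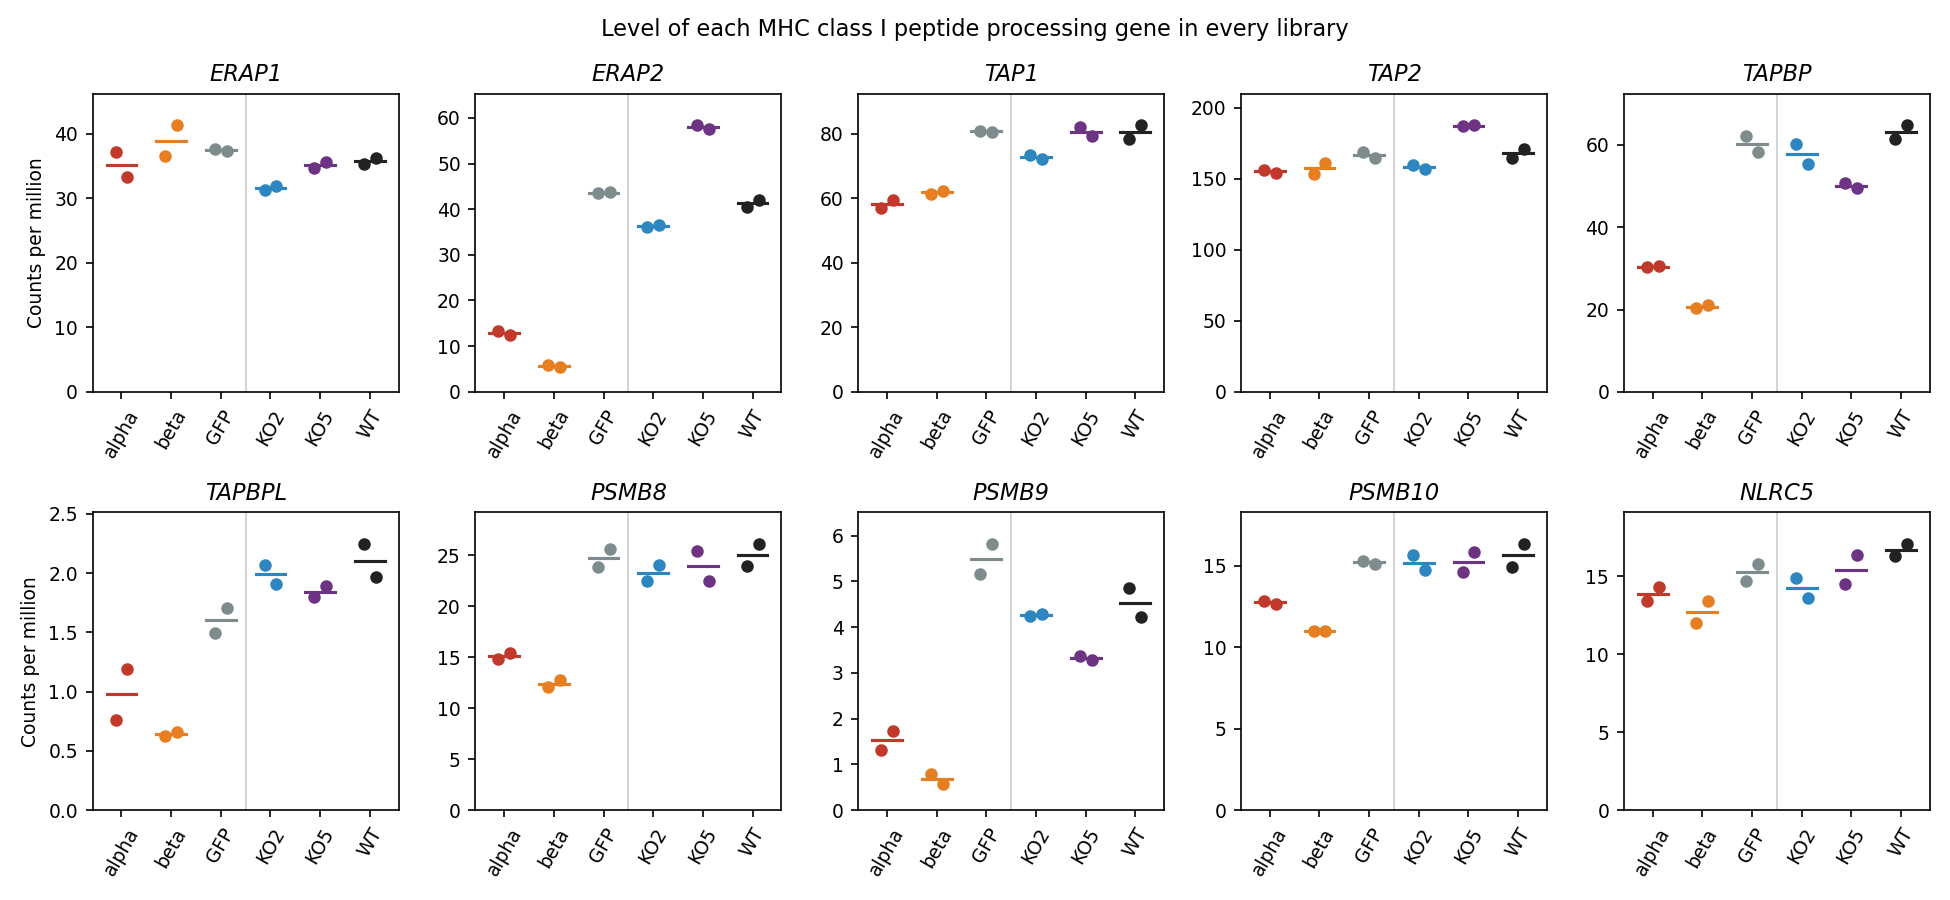
Level of each gene in CPM in every library (points) with the group mean (bar), the PRDM1-overexpressing groups and GFP left of the grey line and the knockout derivatives and WT right of it; every axis starts at 0. ERAP2, PSMB9 and TAPBP stand lowest with beta and next lowest with alpha, while ERAP1 and TAP2 stay within a narrow band.

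The immunoproteasome subunits fell to unequal degrees. PSMB9, which encodes the subunit that replaces PSMB6, had 1.32 and 1.74 CPM in alpha and 0.787 and 0.579 CPM in beta, against 5.16 and 5.82 CPM in GFP. All overexpressing libraries lay far below both GFP libraries, the beta libraries below the alpha libraries. The fold change was -1.85 ± 0.21 with alpha, or 3.61-fold lower (edgeR adjusted p = 1.27e-11), and -3.02 ± 0.29 with beta, or 8.10-fold lower (adjusted p = 9.42e-16). These levels rest on 31 and 35 reads in alpha and 15 and 14 reads in beta, against 131 and 160 reads in GFP.

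PSMB8, whose product replaces PSMB5, had 14.9 and 15.4 CPM in alpha and 12.1 and 12.8 CPM in beta, against 23.9 and 25.6 CPM in GFP. No library of the overexpressing groups reached the GFP range. It fell by 0.70 ± 0.08 with alpha (edgeR adjusted p = 2.78e-10) and by 0.98 ± 0.08 with beta (adjusted p = 4.31e-14). PSMB10, whose product replaces PSMB7, had 12.9 and 12.7 CPM in alpha and 10.97 and 11.01 CPM in beta, against 15.3 and 15.1 CPM in GFP. Here too the groups did not overlap, but the gap was small, with fold changes of -0.25 ± 0.09 for alpha (edgeR adjusted p = 0.0189) and -0.46 ± 0.09 for beta (adjusted p = 3.01e-05). The alpha call of PSMB10 was lost with the DESeq2 Wald test (adjusted p = 0.0724) and without any one of the libraries alpha 1, alpha 2, GFP 1 or GFP 2 (edgeR adjusted p = 0.0694, 0.0912, 0.0646 and 0.0626).

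Set against the constitutive subunit it replaces, within each library, the count of PSMB9 was 0.87% ± 0.20 of that of PSMB6 in alpha and 0.39% ± 0.08 in beta, against 2.80% ± 0.26 in GFP (SD, n = 2 each). For PSMB8 over PSMB5 the ratio was 4.64% ± 0.10 in alpha and 3.63% ± 0.13 in beta, against 7.24% ± 0.46 in GFP. PSMB10 over PSMB7 moved least, at 3.29% ± 0.08 in alpha and 2.71% ± 0.08 in beta, against 3.50% ± 0.13 in GFP. Of the constitutive subunits, PSMB6 and PSMB7 were themselves called lower with both forms, and PSMB5 was called with neither. PSMB6 had means of 177 CPM in alpha and 174 CPM in beta, against 196 CPM in GFP. The means of PSMB7 were 388 CPM in alpha and 405 CPM in beta, against 435 CPM in GFP. The pairs follow the known exchange of subunits but were chosen after the counts had been seen, and the ratios are of counts, not of levels per length.

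**Figure D2:**
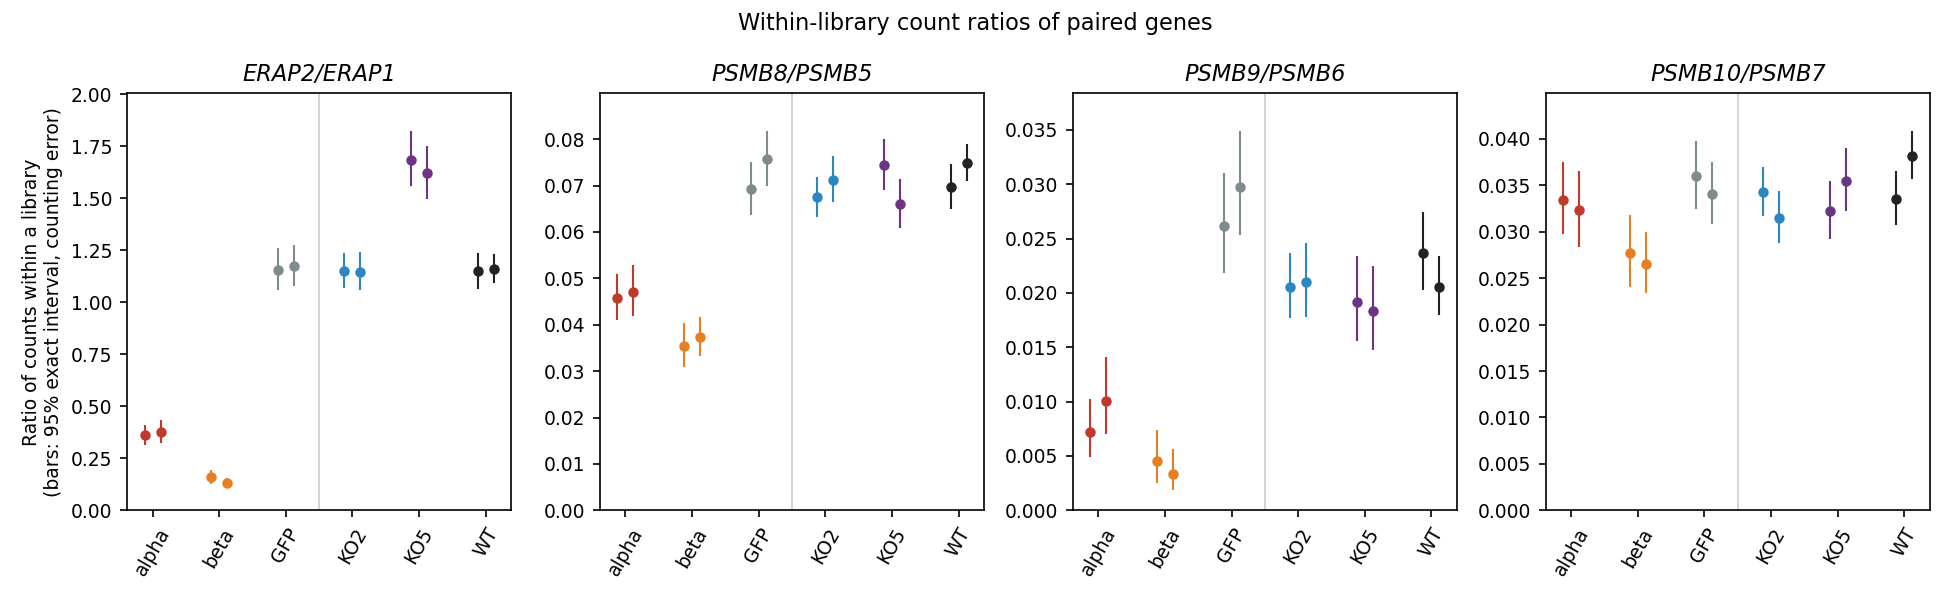
Ratio of the counts of paired genes within each library (points) with 95% exact intervals that cover counting error (bars), by group, with the overexpressing groups and GFP left of the grey line and the knockout derivatives and WT right of it. The ratio of ERAP2 to ERAP1 lies near 0.37 in alpha, 0.14 in beta, 1.16 in GFP, 1.15 in KO2, 1.65 in KO5 and 1.16 in WT.

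The 2 aminopeptidase genes behaved differently from each other. ERAP2, which trims peptides from the amino end together with ERAP1, had 13.4 and 12.5 CPM in alpha and 5.77 and 5.34 CPM in beta, against 43.4 and 43.7 CPM in GFP. The 3 groups were far apart and replicates nearly coincided. The fold change was -1.74 ± 0.08 with alpha, or 3.35-fold lower (edgeR adjusted p = 5.64e-27), and -2.97 ± 0.10 with beta, or 7.83-fold lower (adjusted p = 3.99e-33).

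ERAP1, its relative and neighbour on chromosome 5, had 37.2 and 33.2 CPM in alpha and 36.6 and 41.3 CPM in beta, against 37.7 and 37.3 CPM in GFP. The beta libraries spanned the GFP libraries, and the alpha libraries lay just below them. Neither test passed, with fold changes of -0.08 ± 0.06 for alpha (edgeR adjusted p = 0.327) and 0.07 ± 0.06 for beta (adjusted p = 0.363). The count ratio of ERAP2 to ERAP1 was 0.367 ± 0.011 in alpha and 0.144 ± 0.020 in beta, against 1.16 ± 0.01 in GFP (SD, n = 2 each). The promoter windows of both genes, printed above, carry the same pair of motifs.

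The transporter subunits changed little or unequally. TAP1 had 57.1 and 59.5 CPM in alpha and 61.3 and 62.4 CPM in beta, against 80.9 and 80.6 CPM in GFP. The overexpressing libraries were all below GFP, and here alpha was the lower of the forms. The fold change was -0.47 ± 0.05 with alpha (edgeR adjusted p = 2.93e-12) and -0.38 ± 0.05 with beta (adjusted p = 1e-09).

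TAP2 had 156 and 154 CPM in alpha and 153 and 161 CPM in beta, against 169 and 164 CPM in GFP. The shift was of a few percent, with a fold change of -0.09 ± 0.04 for alpha (edgeR adjusted p = 0.0255) and -0.07 ± 0.04 for beta, which did not pass (adjusted p = 0.0858). The alpha call was lost without alpha 1, alpha 2 or GFP 1 (adjusted p = 0.0585, 0.145 and 0.13). With beta it passed when scaled by DESeq2 size factors (adjusted p = 0.0456) and in the edgeR fit without WT 2, KO2 2, KO5 1 or beta 2 (adjusted p = 0.0391, 0.0405, 0.0415 and 0.0241). The count of TAP1 was 37.6% ± 1.4 of that of TAP2 in alpha and 39.4% ± 0.9 in beta, against 48.5% ± 0.8 in GFP (SD, n = 2 each). PSMB9, which lies head to head with TAP1, had 2.61% ± 0.43 of the count of TAP1 in alpha and 1.11% ± 0.25 in beta, against 6.79% ± 0.59 in GFP, so the neighbours did not move in step.

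Of the loading factors, TAPBP had 30.2 and 30.6 CPM in alpha and 20.3 and 20.98 CPM in beta, against 62.1 and 58.3 CPM in GFP. Replicates agreed closely and the 3 groups did not overlap. The fold change of TAPBP was -0.98 ± 0.06 with alpha, or 1.97-fold lower (edgeR adjusted p = 3.4e-20), and -1.53 ± 0.06 with beta, or 2.89-fold lower (adjusted p = 1.47e-26).

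TAPBPL, the rarest transcript of the 10, had 0.764 and 1.19 CPM in alpha and 0.630 and 0.662 CPM in beta, against 1.495 and 1.71 CPM in GFP. The groups did not overlap, but these values rest on 18 and 24 reads in alpha and 12 and 16 reads in beta, against 38 and 47 reads in GFP. TAPBPL fell by 0.73 ± 0.28 with alpha (edgeR adjusted p = 0.0299) and by 1.30 ± 0.32 with beta (adjusted p = 0.000445). The alpha call was lost with the DESeq2 Wald test (adjusted p = 0.112), without GFP 2 (edgeR adjusted p = 0.167) and without alpha 1, where the fold change was -0.43 (adjusted p = 0.364).

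NLRC5, the class I transactivator, had 13.4 and 14.3 CPM in alpha and 12.02 and 13.4 CPM in beta, against 14.7 and 15.8 CPM in GFP. Every overexpressing library was below both GFP libraries, but the nearest of them by less than the gap between replicates. The fold change was -0.14 ± 0.09 for alpha, which did not pass (edgeR adjusted p = 0.22), and -0.25 ± 0.09 for beta (adjusted p = 0.0198), a call lost with the DESeq2 Wald test (adjusted p = 0.0626) and in the edgeR fit without GFP 2 or beta 1 (adjusted p = 0.172 and 0.187).

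**Figure D3:**
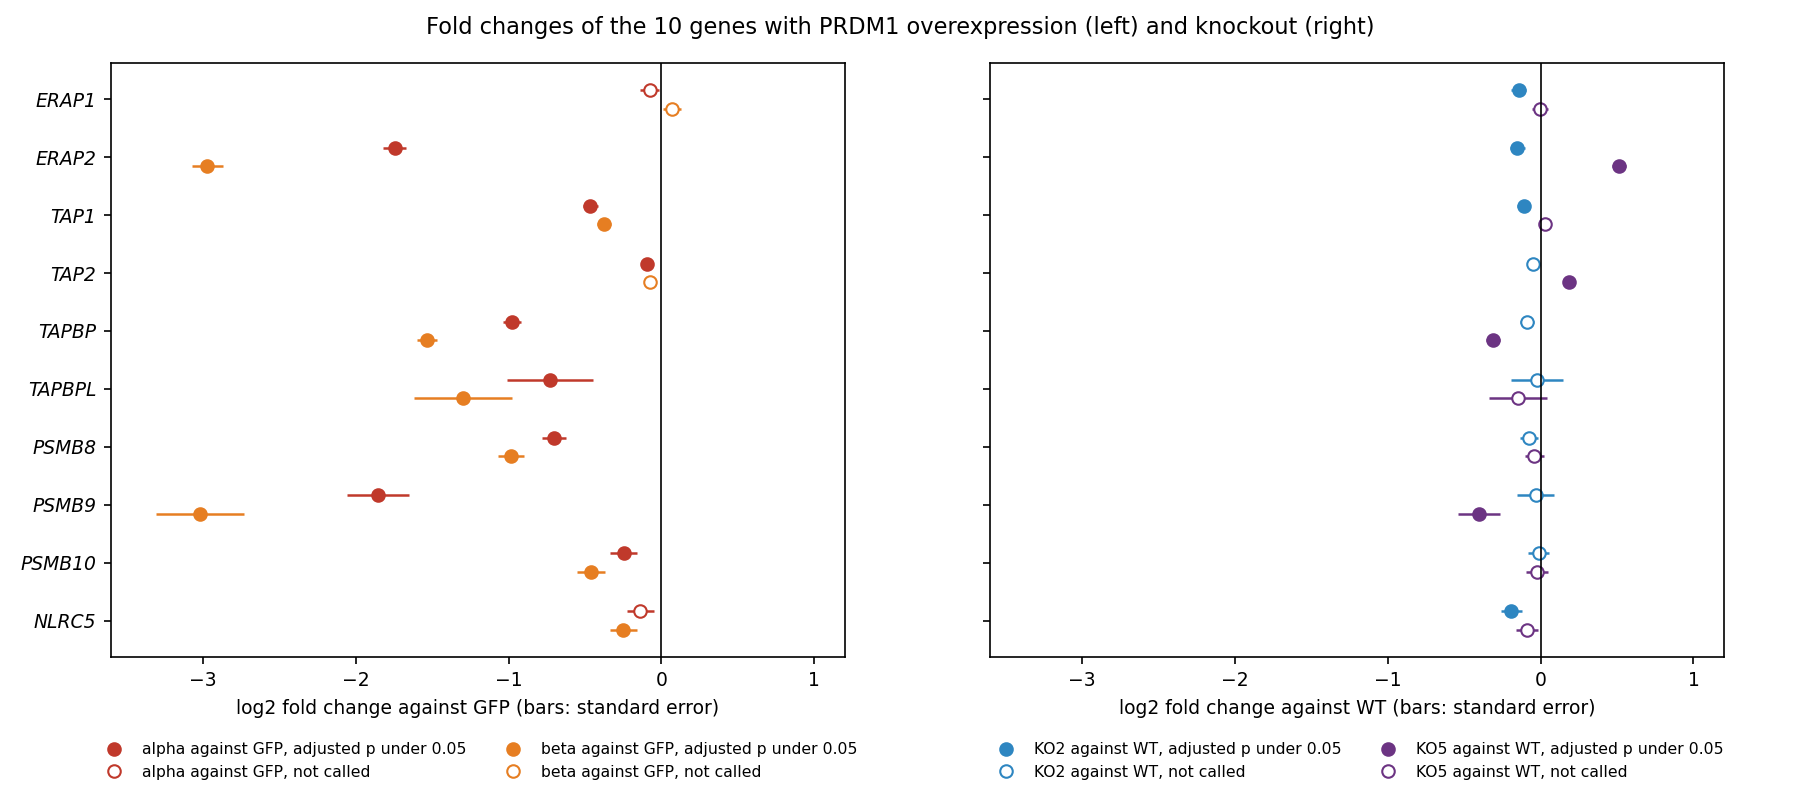
Log2 fold changes of the 10 genes with their standard errors (bars), alpha and beta against GFP on the left and KO2 and KO5 against WT on the right; filled points passed at an adjusted p under 0.05. The left panel reaches -3.02 for PSMB9 with beta, and no point in the right panel lies beyond 0.51 from 0.

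Where these values stand among all genes differed between members. Counting the share of the 12858 genes with the same or a lower fold change, PSMB9 was at 0.389% with alpha and 0.249% with beta, and ERAP2 at 0.451% with alpha and 0.257% with beta. TAPBP stood at 1.56% with alpha and 0.879% with beta. At the other end, ERAP1 was at 31.9% with alpha and 61.3% with beta, inside the bulk of the distribution. In library values all 10 genes lay below GFP in both alpha libraries, as did 32.3% of all genes tested, and 9 lay below GFP in both beta libraries, as did 33.0%, the exception being ERAP1.

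**Figure D4:**
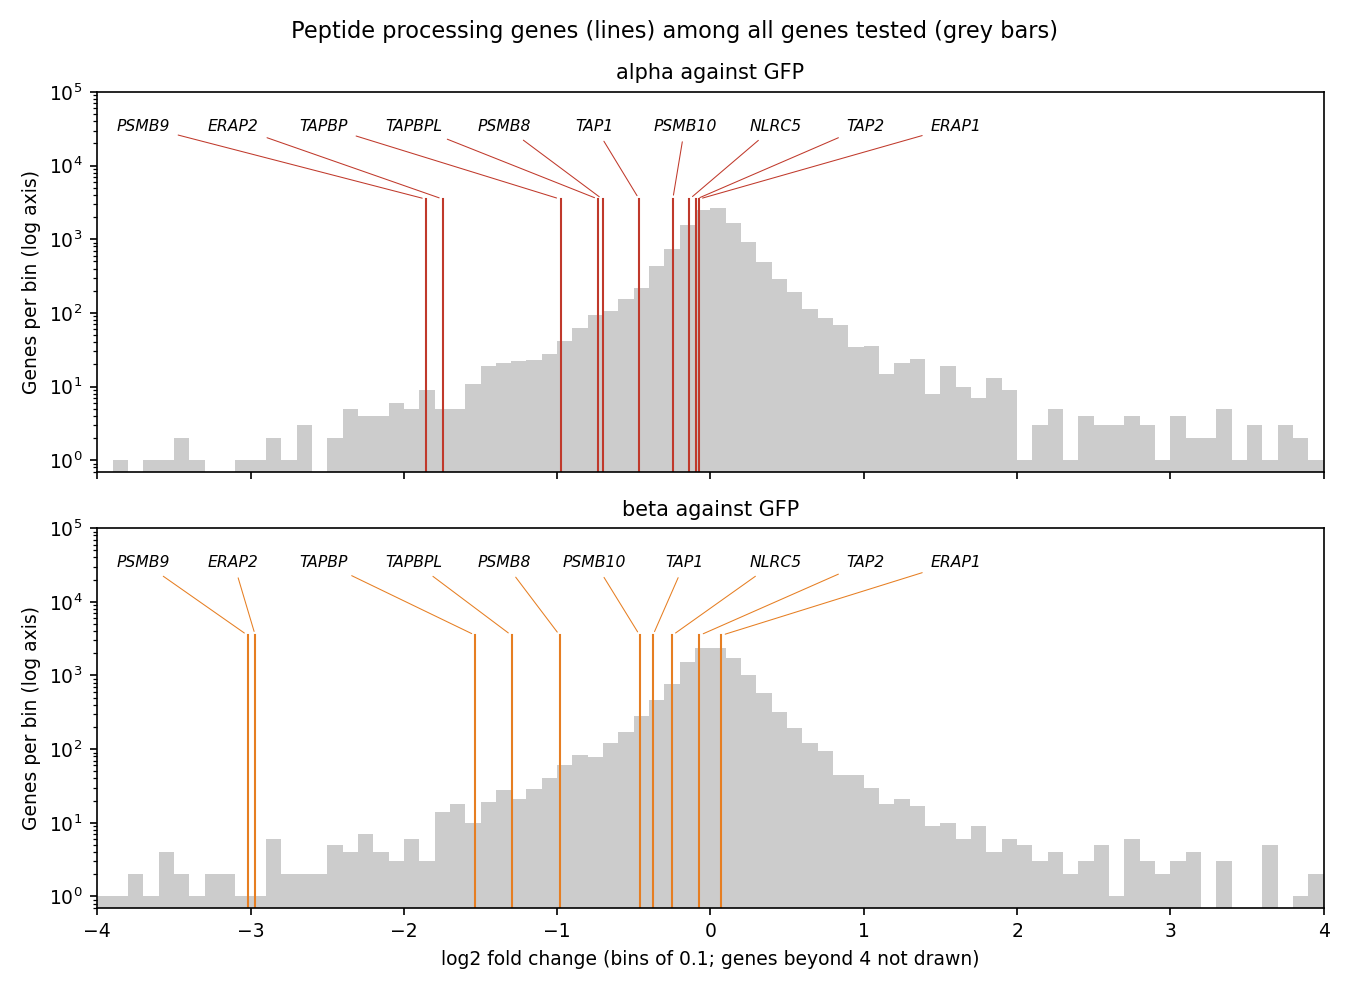
Log2 fold changes of all genes tested (grey bars, genes per bin of 0.1 on a log axis) with the 10 peptide processing genes marked by lines, alpha against GFP above and beta against GFP below. PSMB9 and ERAP2 lie in the sparse left tail in both panels, at -1.85 and -1.74 with alpha and -3.02 and -2.97 with beta, and ERAP1, TAP2 and NLRC5 lie in the central mass.

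The forms were compared directly, where 6.24% of all genes differed and 3.45% were higher with alpha. Of the 10 genes, 3 were higher with alpha than with beta and none was lower. ERAP2 was higher by 1.23 ± 0.12, or 2.34-fold (edgeR adjusted p = 6.26e-13), and TAPBP by 0.56 ± 0.07, or 1.47-fold (adjusted p = 2.87e-08). PSMB9 was higher by 1.16 ± 0.33 (adjusted p = 0.014), a call lost without alpha 2, where the difference was 0.97 (adjusted p = 0.173), or without beta 2, where it was 0.94 (adjusted p = 0.242).

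The difference between forms did not pass for PSMB8, at 0.28 ± 0.09 (edgeR adjusted p = 0.0652, and 0.0438 with no low-count filter), TAPBPL, at 0.57 ± 0.36 (adjusted p = 0.4), or PSMB10, at 0.21 ± 0.10 (adjusted p = 0.195). For TAP1 it was -0.09 ± 0.05, for ERAP1 -0.15 ± 0.06, for TAP2 -0.02 ± 0.04 and for NLRC5 0.11 ± 0.09, and none of these passed. PRDM1 itself was 2.43-fold lower in alpha than in beta, so the form and the amount of its transcript cannot be told apart.

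For TAP1, TAPBP, TAPBPL, ERAP2, PSMB8, PSMB9 and PSMB10 the fold changes of both knockout derivatives against WT were smaller in size than those of both overexpressing groups against GFP, which did not hold for TAP2, ERAP1 and NLRC5, and the differences between these comparisons were not tested. KO2 had 4 genes lower than WT and none higher, where 30.0% of all genes changed and 14.9% were lower. KO5 had 2 higher and 2 lower, where 51.2% changed, 25.2% higher and 25.9% lower. Both comparisons use the same WT libraries, and PRDM1 was near the counting floor in WT.

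In KO2 the changes were small. ERAP2 had 36.0 and 36.6 CPM in KO2, against 40.5 and 42.1 CPM in WT, a fold change of -0.15 ± 0.05 (edgeR adjusted p = 0.00876). TAP1 was lower by 0.11 ± 0.04, ERAP1 by 0.14 ± 0.05 and NLRC5 by 0.19 ± 0.07 (adjusted p = 0.0198, 0.0282 and 0.0295). None of the 4 passed with the DESeq2 Wald test (adjusted p = 0.0976, 0.107, 0.163 and 0.197, in the order given) or in the edgeR fit without WT 2, ERAP2 alone was called without KO2 2, and NLRC5 and TAPBP (-0.15, adjusted p = 0.0326) were called without KO2 1. The other 6 genes had fold changes between -0.09 and -0.01.

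In KO5 ERAP2 was the gene that changed most, with 58.3 and 57.6 CPM in KO5, against 40.5 and 42.1 CPM in WT. The KO5 libraries were higher than any other library in the study, and the fold change was 0.51 ± 0.05, or 1.43-fold higher (edgeR adjusted p = 1.95e-13). The ratio of ERAP2 to ERAP1 was 1.65 ± 0.05 in KO5, against 1.16 ± 0.01 in WT (SD, n = 2 each), and ERAP1 did not pass, at -0.002 ± 0.053 (adjusted p = 0.979).

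TAP2 had 187 and 187 CPM in KO5, against 165 and 171 CPM in WT, a rise of 0.18 ± 0.04 (edgeR adjusted p = 3.05e-06). TAPBP had 50.8 and 49.5 CPM in KO5, against 61.6 and 64.7 CPM in WT, a fall of 0.31 ± 0.05 (adjusted p = 1.47e-07). PSMB9 had 3.36 and 3.29 CPM in KO5, against 4.85 and 4.22 CPM in WT, a fall of 0.40 ± 0.14 (adjusted p = 0.0121). The other 6 genes had fold changes between -0.15 and 0.03 and did not pass. In each of the 3 genes the groups did not overlap, but the PSMB9 call was lost with the DESeq2 Wald test (adjusted p = 0.103) and without WT 1, KO5 1 or KO5 2 (edgeR adjusted p = 0.101, 0.0508 and 0.077).

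Fold changes of KO5 against WT moved with the GC content of the transcript across all genes, which are not independent replicates (Spearman -0.52). TAPBP has a GC content of 61.9% and TAP1 57.8%, while ERAP1 has 41.4% and ERAP2 41.6%, where the median of the genes tested is 49.8%. With the GC trend of each library removed, the fall of TAPBP in KO5 was 0.098 (edgeR adjusted p = 0.0475), TAP1 passed as higher at 0.15 (adjusted p = 0.000475), and ERAP2 and TAP2 kept their calls.

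KO5 and KO2 were also compared directly, where 54.9% of all genes differed, 26.9% higher and 28.1% lower in KO5. ERAP2 was higher in KO5 by 0.67 ± 0.05 (edgeR adjusted p = 6.87e-17), TAP2 by 0.23 ± 0.04 (adjusted p = 2.61e-08), TAP1 by 0.14 ± 0.04 (adjusted p = 0.00247) and ERAP1 by 0.14 ± 0.05 (adjusted p = 0.026). TAPBP was lower in KO5 by 0.22 ± 0.05 (adjusted p = 7.08e-05) and PSMB9 by 0.37 ± 0.14 (adjusted p = 0.0232). With the GC trend removed 4 genes were higher and none lower, the calls of TAPBP (-0.040, adjusted p = 0.44), ERAP1 (0.038, adjusted p = 0.576) and PSMB9 (-0.30, adjusted p = 0.0712) being lost and NLRC5 passing at 0.22 (adjusted p = 0.0132). The PSMB9 call was also lost without any one of the libraries KO2 1, KO2 2, KO5 1 or KO5 2 (edgeR adjusted p = 0.0693, 0.07, 0.0732 and 0.106) and with the DESeq2 Wald test (adjusted p = 0.142), and that of ERAP1 without KO2 1, KO5 1 or KO5 2 (edgeR adjusted p = 0.136, 0.0587 and 0.133) and with the Wald test (adjusted p = 0.0861). The call of TAP1 was lost without KO5 1 (adjusted p = 0.0613), which left 3 members called.

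Fold changes of GFP against WT lay between -0.37 and 0.30 in these genes. None of the 10 passed between GFP and WT with edgeR, where 19.0% of all genes did, and at an unadjusted p under 0.05 there was 1, PSMB9, at 5.16 and 5.82 CPM in GFP, against 4.85 and 4.22 CPM in WT. Over all genes the fold changes of GFP against WT moved with transcript GC content (Spearman -0.67). With that trend removed, 137 of the 12858 genes passed and none of the 10 did, so the 19.0% depends largely on the trend. TAPBPL, the gene at -0.37 ± 0.20 (edgeR adjusted p = 0.187), had 1.495 and 1.71 CPM in GFP, against 2.25 and 1.97 CPM in WT, which did not overlap. The DESeq2 Wald test called none, with or without adjustment.

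The overexpressing groups together were set against the knockout derivatives together. This comparison uses neither GFP nor WT, so a difference can come from either side. All 10 genes passed, 9 lower and ERAP1 higher, where 58.8% of all genes changed and 27.7% were lower. Against GFP, ERAP1 had passed with neither form. In KO2 it was called lower than WT with edgeR, though not with the DESeq2 Wald test. ERAP2 was lower by 2.46 ± 0.06, PSMB9 by 1.92 ± 0.18, TAPBPL by 1.30 ± 0.20 and TAPBP by 1.13 ± 0.04, each at least 2-fold, as were 1.54% of all genes, and PSMB8, PSMB10, TAP1, NLRC5 and TAP2 by between 0.80 and 0.16. ERAP1 was higher by 0.14 ± 0.04 (edgeR adjusted p = 0.00343), a call lost without alpha 1 or beta 2 (adjusted p = 0.0897 and 0.143), and NLRC5 was lower by 0.18 ± 0.06, a call lost without KO2 1, KO5 2 or beta 1 (adjusted p = 0.0572, 0.0691 and 0.0578).

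The authors deposited the contrast against the knockout separately for each form. In the authors' deposited table of alpha over knockout, ERAP2 had a log2 fold change of -1.41, PSMB9 -0.90, TAPBP -0.80, PSMB8 -0.62, TAPBPL -0.58 and TAP1 -0.41, all with adjusted p under 0.05, while TAP2, ERAP1, PSMB10 and NLRC5 did not pass there. The authors' deposited table of beta over knockout listed ERAP2 at -2.26, PSMB9 at -1.49, TAPBP at -1.31, TAPBPL at -0.89, PSMB8 at -0.88, PSMB10 at -0.46 and TAP1 at -0.32, all with adjusted p under 0.05, and TAP2, ERAP1 and NLRC5 did not pass. Whether those fold changes were shrunken is not stated.

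Levels of different genes can be set side by side only per length, here as CPM per kilobase of exon with exon lengths from GENCODE v29. In GFP the transporter genes stood highest, TAP1 at 27.3 and TAP2 at 26.9 CPM per kilobase, with PSMB8 at 15.97, TAPBP at 14.4, PSMB10 at 12.5, ERAP2 at 7.40, PSMB9 at 5.96, ERAP1 at 5.05, NLRC5 at 2.24 and TAPBPL at 0.914. In beta the order was TAP2 at 25.5, TAP1 at 20.9, PSMB10 at 9.02, PSMB8 at 8.02, ERAP1 at 5.25, TAPBP at 4.92, NLRC5 at 1.86, ERAP2 at 0.943, PSMB9 at 0.742 and TAPBPL at 0.368 CPM per kilobase. ERAP2 was thus above ERAP1 per length in GFP and below it in beta.

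Over the 6 group means the span of log2 CPM was 3.38 for ERAP2, 2.90 for PSMB9, 1.599 for TAPBP, 1.598 for TAPBPL and 0.99 for PSMB8, and between 0.27 for ERAP1 and 0.49 for PSMB10 in the remaining 5. Likeness of pattern was measured as the root mean square difference of group means in log2 CPM, each gene centred on its own mean over the 6 groups. Among the members, PSMB10 and NLRC5 were the closest pair at 0.095, TAPBP and TAPBPL differed by 0.14, ERAP2 and PSMB9 by 0.40, and the widest gap was the 1.24 between ERAP1 and ERAP2. The count of TAPBPL was 3.21% ± 0.96 of that of TAPBP in alpha and 3.13% ± 0.04 in beta, against 2.67% ± 0.37 in GFP (SD, n = 2 each), and between 3.34% and 3.68% on average in KO2, KO5 and WT.

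The genes outside the list with the most similar pattern, for members whose groups span at least 1 on the log2 scale, were ANXA1 (0.20), TGFB2 (0.21) and IFIT2 (0.21) for ERAP2, ZSCAN30 (0.12), ZNF271P (0.18) and KITLG (0.25) for PSMB9, SDR39U1 (0.13) and ALPK1 (0.13) for TAPBP, and SDR39U1 (0.10), IL15RA (0.12) and ALPK1 (0.14) for TAPBPL. IFIT2 is an interferon-induced gene and IL15RA encodes a cytokine receptor chain.

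Of the lists of genes around the pathway, some held calls in both directions with a given form, and others only rises or no calls. All these lists had medians closer to 0 than the 10 genes. Their counts of calls stand beside a background of 21.2% higher and 16.3% lower among all genes with alpha, and 22.9% higher and 18.0% lower with beta. Of 8 constitutive proteasome, activator and assembly genes, 2 were higher and 5 lower with alpha, and 1 was higher and 5 lower with beta, with medians of -0.15 and -0.13, where 37.5% of all genes changed with alpha and 40.9% with beta. The largest falls were those of PSME2 and PSME1, which encode the subunits of the interferon-inducible PA28 activator. PSME2 had 49.6 and 54.1 CPM in alpha and 39.4 and 39.1 CPM in beta, against 118 and 123 CPM in GFP. PSME1 had 60.7 and 62.8 CPM in alpha and 41.9 and 45.0 CPM in beta, against 103 and 105 CPM in GFP. No overexpressing library of either gene came near GFP, with fold changes for PSME2 of -1.21 ± 0.05 and -1.61 ± 0.05 and for PSME1 of -0.74 ± 0.05 and -1.25 ± 0.05, alpha given before beta in each. The assembly chaperone POMP fell by 0.39 ± 0.04 with alpha and 0.28 ± 0.04 with beta, and PSME4, an activator of another family, rose by 0.22 ± 0.04 and 0.28 ± 0.04.

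Genes of the class I molecules themselves went both ways. Of 6 tested genes for class I heavy chains and beta-2-microglobulin, 2 rose and 2 fell with each form, and the medians were 0.06 with alpha and 0.07 with beta. B2M, the light chain, fell by 0.41 ± 0.03 with alpha and 0.38 ± 0.03 with beta, and HLA-B by 0.29 ± 0.06 and 0.36 ± 0.06. HLA-E rose by 0.36 ± 0.04 with alpha and 0.33 ± 0.04 with beta. HLA-G had too few counts to be tested.

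Of 6 endoplasmic reticulum chaperones and channel genes used in class I folding, 4 rose and none fell with alpha, and 4 rose and 1 fell with beta, where 21.2% and 22.9% of all genes were higher and 16.3% and 18.0% lower. The rises were of P4HB at 0.24 ± 0.03 with alpha and 0.20 ± 0.03 with beta, CALR at 0.24 ± 0.03 and 0.18 ± 0.03, SEC61A1 at 0.22 ± 0.03 and 0.21 ± 0.03, and CANX at 0.12 ± 0.03 and 0.08 ± 0.03. The beta call of CANX was lost without GFP 1 or beta 2 (adjusted p = 0.0626 and 0.162) and when only the compared groups were fitted (adjusted p = 0.0963). Of 8 other cytosolic and endosomal peptidases 5 rose and none fell with either form, where 21.2% of all genes were higher with alpha and 22.9% with beta. The oligopeptidase THOP1 rose by 0.46 ± 0.04 with alpha and 0.39 ± 0.05 with beta, and the signal peptide peptidase HM13 by 0.34 ± 0.04 and 0.33 ± 0.04. With the GC trend removed the beta rise of THOP1 was 0.25, below that of HM13 at 0.32.

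Upstream of the pathway, of 7 tested partners of the class I transactivators none passed with alpha and 1 rose with beta. Of 14 interferon signalling genes 2 rose and 3 fell with alpha, and 5 rose and 1 fell with beta, shares near those of all genes, of which 37.5% changed with alpha and 40.9% with beta. IRF2, which binds interferon response elements, fell by 0.38 ± 0.09 with alpha and 0.33 ± 0.09 with beta. IRF1, a transcription factor of the interferon gamma response that was picked after its values were seen, had fold changes of -0.10 ± 0.10 with alpha and -0.03 ± 0.09 with beta, neither of which passed.

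Of 11 tested genes that neighbour the members on their chromosomes, 2 rose and 1 fell with alpha, and 1 rose and 1 fell with beta, shares below the 37.5% and 40.9% of all genes that changed. Next to TAPBP, RGL2 rose by 0.20 ± 0.06 with alpha and 0.22 ± 0.06 with beta, and DAXX fell by 0.12 ± 0.04 and 0.22 ± 0.04. The alpha calls of RGL2 and DAXX were lost without GFP 2 (adjusted p = 0.0541 and 0.1) or alpha 1 (adjusted p = 0.0859 and 0.096). Beside the ERAP genes, CAST had fold changes of 0.08 ± 0.04 with alpha and 0.06 ± 0.04 with beta and LNPEP of 0.07 ± 0.08 and -0.01 ± 0.08, none of which passed. With the GC trend removed CAST passed with alpha, at 0.09 (edgeR adjusted p = 0.00965).

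**Figure D5:**
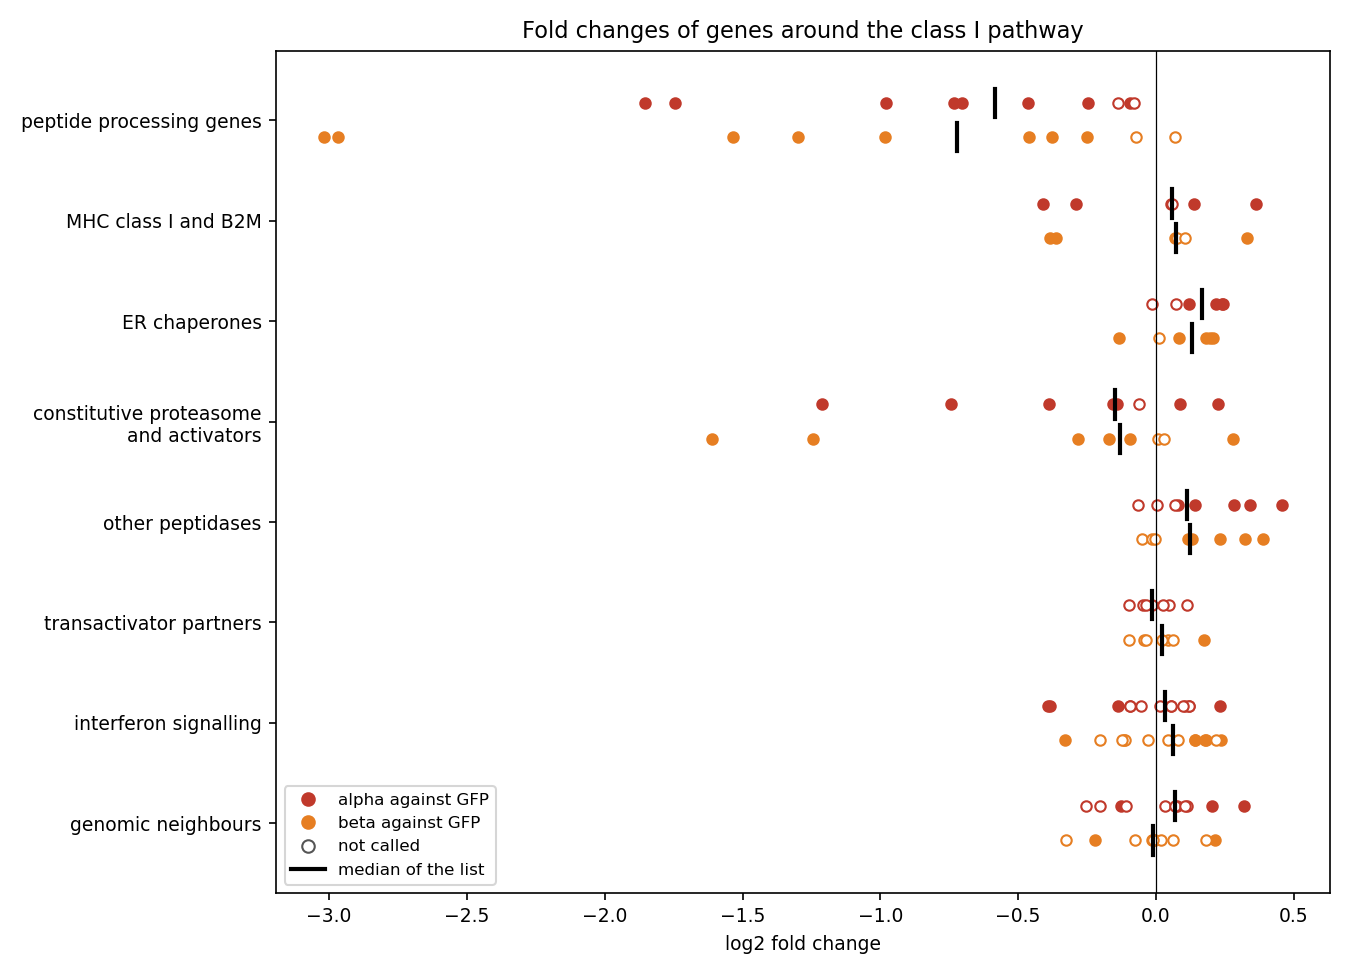
Log2 fold changes of the 10 peptide processing genes and of 7 lists of genes around the pathway, each point 1 gene, alpha above beta in each row, filled where the adjusted p was under 0.05, with the median of each list as a black bar. The medians of the peptide processing genes lie at -0.58 with alpha and -0.72 with beta, and the medians of the other lists lie between -0.15 and 0.17 with either form.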

How the data were processed

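Polyadenylated RNA of 12 RKO libraries was prepared with a stranded kit, per the labels. TopHat, Bowtie2 and Cufflinks were used with hg19, per the submitters' processing notes, with versions not given in the sources used here, nor the read counter or its strand setting. TAP1, TAP2, TAPBP, PSMB8 and PSMB9 lie in the MHC region, which hg19 also holds as alternate haplotypes, so how shared or overlapping reads were counted is uncertain. The authors deposited whole read counts per gene symbol, without normalization. Entries naming no gene (9.13% to 10.8% without a feature, 1.66% to 1.75% ambiguous) were left out. The authors' deposited comparison tables hold log2 fold changes, p-values, a score (the Wald statistic) and other columns, the standard error of the fold change and the mean of normalized counts. A further deposited table, named for both forms, repeated the values for beta and was left aside.

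The counts were tested with edgeR 4.0.16 under R 4.3.3 (filterByExpr, TMM, glmQLFit robust, glmQLFTest, a mean per group over all 12 libraries, Benjamini-Hochberg over 12858 genes, calls at 0.05). The fit was also run on simulated counts, in which all genes had the same dispersion and no GC trend was put in. That run therefore does not show how the calls behave under such a trend. Standard errors are Wald errors in which the quasi-likelihood dispersion was not let below 1, and log2 CPM used a prior count of 2. CPM are gene counts scaled to a total of 1000000. The 10 genes, the lists, the motifs and the tests were chosen with earlier results of these data known. All 10 genes are named, and up to 4 genes a list, those with the largest changes among members that passed with both forms. Same-numbered replicates did not deviate together (correlations between -0.065 and 0.056), so the replicate number is not a pairing. GC content, with which 94.28% of tested genes were matched, and exon length came from GENCODE v29, and promoter windows from RefSeq (GRCh38.p14). Alternatives were DESeq2 1.42.0 (size factors and the Wald test), no low-count filter, only the compared groups, a replicate block, removal of the GC trend, a test beyond 1.5-fold and each library left out. Count ratios carry 95% exact intervals for counting error only. Some of the genes and motifs that these rules name are not reported here.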

Additional observations from a re-analysis of the deposited data

Results flagged for a closer look

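Both forms of PRDM1 were set against the same GFP libraries above. The direct edgeR test of alpha against beta found differences in 3 genes, where 6.24% of all genes differed. ERAP2 was higher with alpha by 1.23 ± 0.12 (adjusted p = 6.26e-13), TAPBP by 0.56 ± 0.07 (adjusted p = 2.87e-08) and PSMB9 by 1.16 ± 0.33 (adjusted p = 0.014), a call lost without alpha 2 (adjusted p = 0.173) or beta 2 (adjusted p = 0.242). All 3 were lower than GFP with both forms, and PRDM1 had a mean of 484 CPM in alpha and 1175 CPM in beta.

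Both knockout derivatives were set against the same WT libraries above. The direct edgeR test of KO5 against KO2 found differences in 6 genes, where 54.9% of all genes differed. ERAP2 was higher in KO5 by 0.67 ± 0.05 (adjusted p = 6.87e-17), TAP2 by 0.23 ± 0.04 (adjusted p = 2.61e-08), TAP1 by 0.14 ± 0.04 (adjusted p = 0.00247) and ERAP1 by 0.14 ± 0.05 (adjusted p = 0.026). TAPBP differed by -0.22 ± 0.05 (adjusted p = 7.08e-05) and PSMB9 by -0.37 ± 0.14 (adjusted p = 0.0232). Over all genes these fold changes moved with transcript GC content (Spearman -0.42), and the calls of TAPBP, ERAP1 and PSMB9 were lost once that trend was removed.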

How the results depend on the processing

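Leaving aside the test beyond 1.5-fold, 18 alternatives were run. TAP1, TAPBP, ERAP2, PSMB8 and PSMB9 kept their alpha call in all of them, these and TAPBPL and PSMB10 their beta call, TAPBP and ERAP2 the difference between forms, TAP2, TAPBP and ERAP2 the KO5 call, TAP2 and ERAP2 the difference between KO5 and KO2, and no gene the KO2 call. Beyond 1.5-fold, 3 genes passed with alpha, 4 with beta, 1 between alpha and beta, 0 in KO2, 0 in KO5, 0 between KO5 and KO2, and 5 between overexpression and knockout. The DESeq2 Wald test called 0 in KO2. With 1 library left out the counts ranged from 5 to 8 with alpha, 7 to 9 with beta, 2 to 3 between alpha and beta, 0 to 4 in KO2, 3 to 4 in KO5, 3 to 6 between KO5 and KO2, 9 to 10 between overexpression and knockout and 0 to 0 between GFP and WT. The replicate block changed no member count (8 with alpha, 8 with beta, 3 between the forms, 4 in KO2, 4 in KO5, 6 between KO5 and KO2, 0 between GFP and WT and 10 between overexpression and knockout), and the numbers are no pairing. Removing the GC trend left 8 with alpha and 8 with beta. Signs turned among values that did not pass. ERAP1 in KO5 was 0.0071 with DESeq2 size factors and 0.0079 with its Wald test. With the GC trend removed PSMB10 was 0.0119 in KO2, 0.151 in KO5 and 0.139 between KO5 and KO2, PSMB8 0.0298 and NLRC5 0.0389 in KO5, and TAPBPL 0.0021 between KO5 and KO2. Leaving out 1 library moved TAPBPL from -0.137 to 0.0625, PSMB9 from -0.149 to 0.0592 and PSMB10 from -0.062 to 0.0601 in KO2. In KO5 TAP1 moved from -0.0026 to 0.0652, ERAP1 from -0.0162 to 0.0177, PSMB8 from -0.136 to 0.0476 and PSMB10 from -0.076 to 0.0499, and between KO5 and KO2 PSMB8 from -0.0574 to 0.125 and PSMB10 from -0.065 to 0.0444. ERAP1 moved from -0.17 to 0 with alpha and from -0.0387 to 0.146 with beta, TAP2 between the forms from -0.0548 to 0.0178, and LNPEP from -0.0689 to 0.194 with alpha and from -0.143 to 0.111 with beta. The cause was not tested. The background shares in the text rest on calls over all genes, which were 4824 with alpha, 5261 with beta, 802 between alpha and beta, 3857 in KO2, 6578 in KO5, 7062 between KO5 and KO2, 7557 between overexpression and knockout and 2444 between GFP and WT. Beyond 1.5-fold they were 360, 353, 59, 176, 280, 441, 639 and 0 in the same order. The DESeq2 Wald test called 440 between alpha and beta, 2433 in KO2 and 1238 between GFP and WT, and removal of the GC trend left 137 between GFP and WT. With 1 alpha or beta library left out, the counts between alpha and beta fell to between 387 (without beta 2) and 497 (without beta 1), and the counts between GFP and WT fell to 628 without WT 2 and 1076 without GFP 2, and that in KO2 to 2557 without WT 2. With 2 libraries a group, the low counts of TAPBPL and PSMB9 limit their precision most.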
